A study of Haplochromis burtoni and Lepidiolamprologus elongatus and Tropheus moorii with 25 samples.

Results

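The cells described here are barcodes from cichlid intestine that carried the transcript of il17re, a chain of an interleukin-17 receptor, and no transcript of 5 genes that mark other cells. A droplet barcode was kept when it held at least 500 unique transcript tags (UMIs) from at least 250 genes, which left 101710 barcodes. Of these, 6018 had at least 1 il17re UMI. Barcodes were then set aside when they also held a UMI of foxp3 (the regulatory T cell factor), csf1r (the receptor of macrophages), mogat2 or mttp (lipid absorption by enterocytes) or cubn (protein uptake by enterocytes), which removed 1036 barcodes and left 4982. They are called il17re-positive here. They were compared with 11580 barcodes of the same libraries that had at least 1 UMI of lck, the Src-family kinase of T cell receptor signalling, and no il17re UMI (lck-positive).

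The study took the intestine of 25 African cichlid fishes, 1 library per species, with no replicate within a species, so p-values over libraries measure the spread between species' libraries. The libraries are Haplochromis burtoni, Lepidiolamprologus elongatus, Tropheus moorii, Callochromis pleurospilus, Cyprichromis coloratus, Julidochromis ornatus, Lepidiolamprologus attenuatus, Neolamprologus brevis, Perissodus microlepis, Petrochromis orthognathus, Telmatochromis vittatus, Boulengerochromis microlepis, Eretmodus cyanostictus, Triglachromis otostigma, Xenotilapia spiloptera, Limnotilapia dardennii, Oreochromis niloticus, Trematocara zebra, Haplotaxodon microlepis, Cyphotilapia frontosa, Benthochromis horii, Bathybates ferox, Shuja horei, Simochromis diagramma and Neolamprologus brichardi. The gut pieces were treated with the enzyme dispase II and passed through a fine strainer, and the labels name no sort. The labels give no genotype, treatment, age, sex or diet, so a difference between species cannot be told apart from one between fish or preparations.

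Interleukin-17 cytokines are secreted by lymphocytes and by epithelial cells, and act at barriers such as the gut. In mammals IL-17RE pairs with IL-17RA to bind IL-17C, a cytokine made by epithelial cells, and is found on epithelium and on T helper cells of the IL-17-producing kind. Innate lymphoid cells of mammals, which lack the T cell antigen receptor, share the transcription factors RORA and GATA3 and the IL-7 receptor with T cells. Which of these cells carry il17re in cichlids is not given by the labels.

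Total UMIs per library ranged between 7016583 and 32569739, and the median UMIs per kept barcode between 1443 and 5957. The il17re-positive barcodes held 15973972 UMIs and the lck-positive ones 35247964. Their median depth, as the median over libraries, was 2552.5 UMIs in il17re-positive and 2187 UMIs in lck-positive barcodes, and the median mitochondrial share was 2.98% in il17re-positive and 3.58% in lck-positive barcodes. A pair of libraries shared at most 17 barcode sequences. A simulated-doublet score marked 4.76% of il17re-positive and 5.34% of lck-positive barcodes, which were kept. In Haplotaxodon microlepis, epcam, the epithelial adhesion molecule, was detected in 8 of 26 il17re-positive and in 191 of 265 lck-positive barcodes (72.1%), against a median over libraries of 13.3% for il17re-positive and 15.3% for lck-positive barcodes. That library stands apart, and counts without it are given beside the main comparison.

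The share of il17re-positive barcodes differed widely between libraries and was highest in Callochromis pleurospilus, at 20.1% (777 of 3858 kept barcodes, exact 95% interval 18.9 to 21.4). The next were Julidochromis ornatus (327 of 3261), Telmatochromis vittatus (372 of 3766), Lepidiolamprologus elongatus (486 of 5196) and Eretmodus cyanostictus (355 of 4102), which lay between 8.65% and 10.03%. The lowest share was 0.751% in Haplotaxodon microlepis (26 of 3462, exact 95% interval 0.491 to 1.098). Over the 25 libraries the median was 3.84% with an SD of 4.20 percentage points, beside a median of 7.65% and a range of 2.001% to 33.4% for lck-positive barcodes. il17re-positive barcodes outnumbered lck-positive ones in 3 libraries, Callochromis pleurospilus, Perissodus microlepis (6.30% against 3.55%) and Haplochromis burtoni (4.49% against 2.96%). With the 83666 barcodes of at least 1000 UMIs thinned to 1000, the median il17re-positive share was 2.46% and the range 0.585% to 11.8%, again with Callochromis pleurospilus highest. Intervals cover counting error only, and since the rule chose these cells by il17re, the shares are a description.

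**Figure D1:**
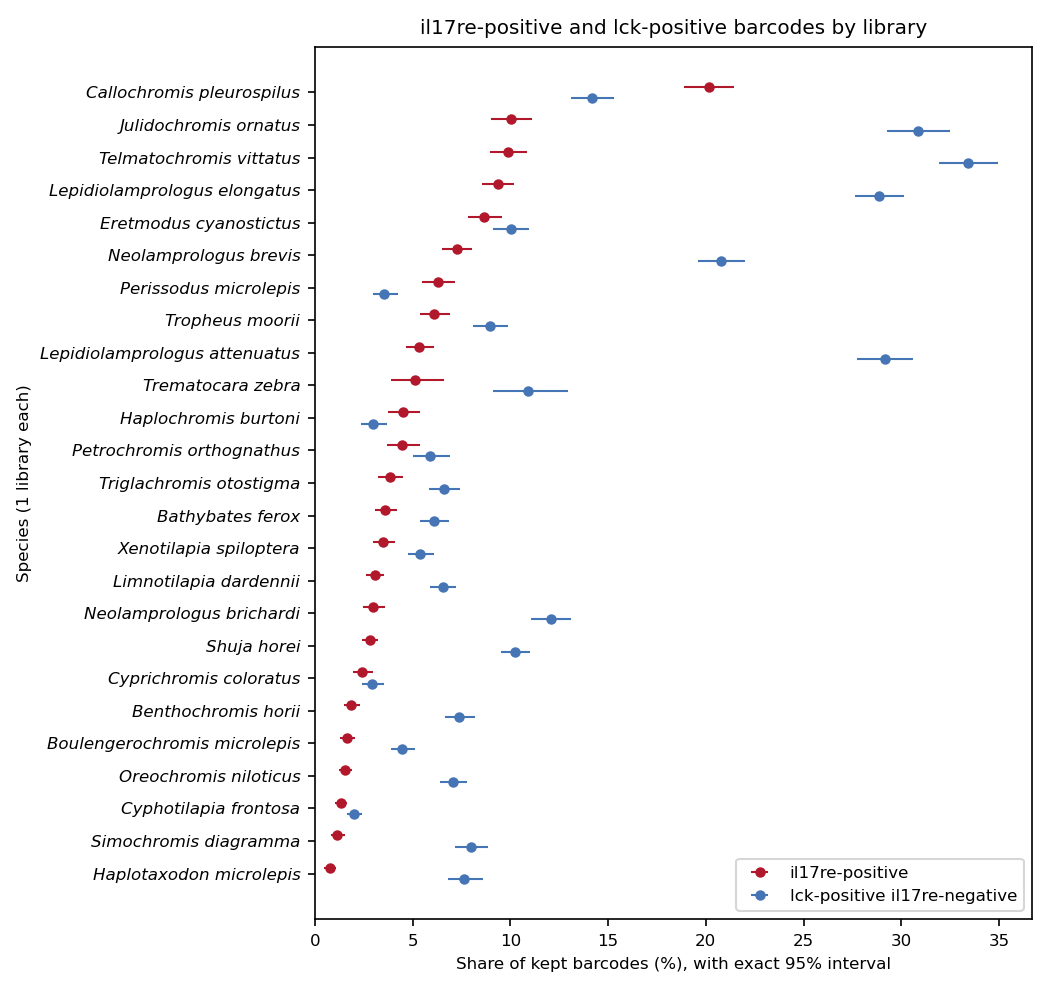
Share of kept barcodes (x axis, percent) that were il17re-positive (red, upper point) or lck-positive and il17re-negative (blue, lower point) in each species' library (y axis), with exact 95% binomial intervals. Callochromis pleurospilus stands apart at 20.1% il17re-positive, and the 5 libraries with the highest lck-positive shares do not include it.

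No relation of the il17re-positive share to sequencing depth passed the test. Against the log10 of the median UMIs per barcode, Pearson's r was 0.06 (permutation p = 0.762, adjusted p = 0.762) and Spearman's rho 0.02 (permutation p = 0.933, adjusted p = 0.933) over 25 libraries. Between the il17re-positive and the lck-positive share r was 0.54 and rho 0.56 over the 25 libraries. Without Telmatochromis vittatus and Julidochromis ornatus, the 2 libraries farthest from the median lck-positive share, r was 0.44. Both shares are counts that the choice of sets defines and parts of the same total, so this relation is a description with no test. The p-values for depth are 2-sided and adjusted over the 2 relations computed, and relatedness between the fishes is not part of them.

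il17re itself was sparse in these cells. Of the 4982 barcodes, 2780 (55.8%) held exactly 1 il17re UMI, 935 (18.8%) held 2, and 1267 (25.4%) held 3 or more, up to 60 in a barcode of Callochromis pleurospilus. Those with 1 UMI sit just inside the threshold of the rule, and barcodes with 0 just outside it. Summed per library, il17re reached 268, 645.9 and 1077 CPM (UMIs scaled to the total of the set, as lowest, median and highest library). Oreochromis niloticus was lowest and Neolamprologus brevis highest. The rule puts at least 1 il17re UMI in each barcode, so this value also depends on depth. The median depth of these barcodes was 3859.5 UMIs in Oreochromis niloticus and 1895 UMIs in Neolamprologus brevis. lck, which chose the other set, reached 29.5, 126.9 and 641 CPM in il17re-positive and 163, 449.8 and 883 CPM in lck-positive barcodes. Among barcodes with il17re that the rule set aside, foxp3 was the most frequent reason: 661 of 6018 (10.98%) held a foxp3 UMI, against 220 with mogat2, 123 with csf1r, 94 with mttp and 49 with cubn.

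il17re was found more often beside lymphoid than beside myeloid or epithelial genes. It was detected in a median of 12.5% of all lck-positive barcodes per library (range 2.42% to 37.9%) and in 20.0% of foxp3-positive ones (1.36% to 44.0%). It was detected in 1.27% of csf1r-positive barcodes (0% to 18.2%) and in 1.35% of those with mogat2, mttp or cubn (0.239% to 6.27%), although these were deeper, with medians of 3908.5 and 5346 UMIs. Thinned to 1000 UMIs, il17re was detected in a median of 6.90% of lck-positive, 0.327% of csf1r-positive and 0.488% of mogat2-, mttp- or cubn-positive barcodes. foxp3, csf1r, mogat2, mttp and cubn are part of the rule, so these shares carry no test. The csf1r-positive extreme of 18.2% is 2 of 11 barcodes in Trematocara zebra, but in Callochromis pleurospilus it was 18 of 113 (15.9%, exact 95% interval 9.72 to 24.0). That library also had the highest il17re-positive share, and the part of free RNA in these values was not tested.

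The lymphoid label was checked with 5 genes that the rule did not use to choose these cells. Barcodes of at least 1000 UMIs were thinned to 1000, and il17re-positive ones were set against il17re-negative ones of the same library that had the same 5 excluded genes at 0. lck was detected in 16.4% ± 11.1 of il17re-positive and 9.80% ± 8.91 of il17re-negative barcodes (mean ± SD, n = 25 libraries). The difference of 6.63 percentage points was positive in 23 of 25 libraries (2-sided sign-flip permutation test, p = 2e-05, adjusted p = 5e-05). The exceptions were Julidochromis ornatus and Eretmodus cyanostictus. gata3, a transcription factor of T cells and innate lymphoid cells, was detected in 3.81% ± 5.33 and 1.80% ± 2.15 (n = 25), higher in 19 of 25 libraries (permutation adjusted p = 0.00125). Benthochromis horii had the highest gata3 share in both sets, and without it the difference was 1.37 percentage points (permutation adjusted p = 0.00267). In barcodes with mogat2, mttp or cubn, which should lack both genes, the median shares were 0.876% for lck and 0.0678% for gata3.

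The other lymphocyte genes did not pass the test at this depth. btla, an inhibitory receptor of lymphocytes, was detected in 10.8% ± 9.06 of il17re-positive and 8.05% ± 5.47 of il17re-negative barcodes, higher in 15 of 25 libraries (permutation adjusted p = 0.104). Thinned to 2000 UMIs its difference was 6.62 percentage points (permutation adjusted p = 0.00101), and at 1000 UMIs without Lepidiolamprologus attenuatus 3.39 percentage points (permutation adjusted p = 0.0351). ccr7, the receptor that guides lymphocytes and dendritic cells to lymphoid tissue, differed by 0.659 percentage points, higher in 14 of 25 libraries (permutation adjusted p = 0.161). epcam was detected in 5.96% ± 5.38 of il17re-positive and 22.9% ± 9.97 of il17re-negative barcodes, lower in 25 of 25 libraries (permutation adjusted p = 5e-05, from the smallest p that the resamples can give). The label lymphoid therefore rests on lck and gata3, compared with an il17re-negative side in which epcam was detected more often. The part of epithelial barcodes in the lck and gata3 differences was not tested. Low epcam does not separate lymphoid from myeloid cells: its median was 5.45% in il17re-positive, 22.3% in il17re-negative and 7.49% in csf1r-positive barcodes. Without thinning, lck was detected in 1800 of the 4982 barcodes (36.1%), and whether the other 3182 lack it or fall below detection cannot be told apart at this depth.

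**Figure D2:**
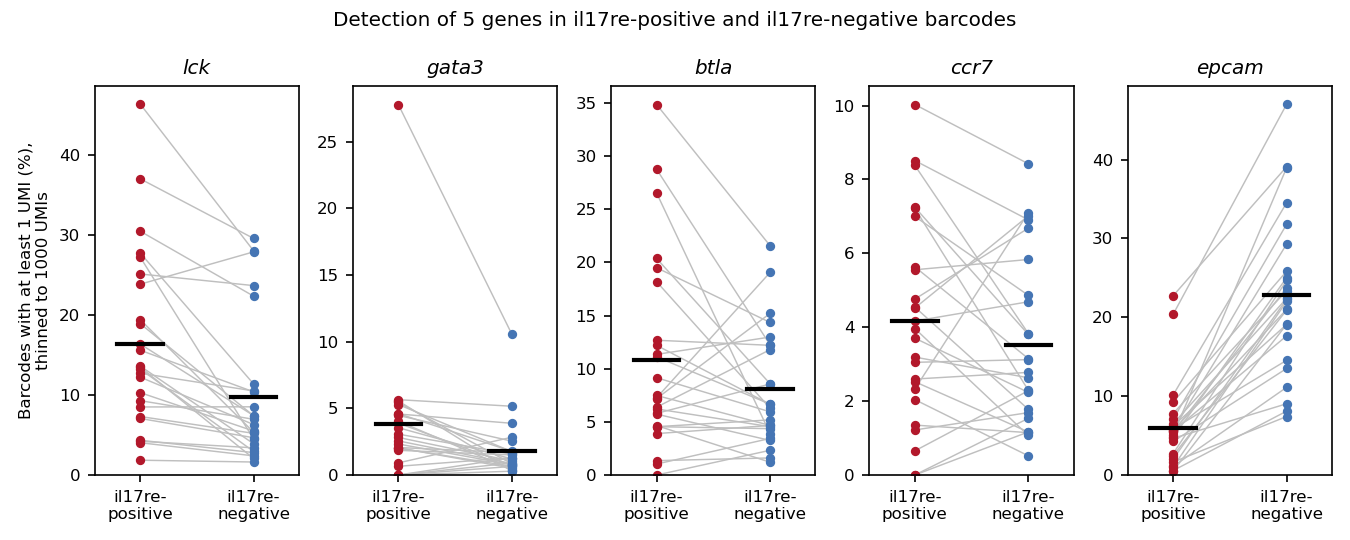
Share of barcodes with at least 1 UMI (y axis, percent, after thinning to 1000 UMIs) of lck, gata3, btla, ccr7 and epcam in il17re-positive (left, red) and il17re-negative (right, blue) barcodes. Each line is 1 of 25 libraries and black bars are means: lck averaged 16.4% and 9.80%, and epcam 5.96% and 22.9%.

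What the il17re-positive barcodes carried besides il17re varied by species. lck was detected in 350 of 486 (72.0%, exact 95% interval 67.8 to 76.0) in Lepidiolamprologus elongatus and in 39 of 55 (70.9%, 57.1 to 82.4) in Trematocara zebra, but in 4 of 76 (5.26%, 1.45 to 12.9) in Cyphotilapia frontosa. The median over libraries was 26.2%. btla was detected in 115 of 213 (54.0%, 47.0 to 60.8) in Perissodus microlepis and in 1 of 85 in Benthochromis horii (1.18%, 0.0298 to 6.38). In lck-positive barcodes of Perissodus microlepis btla was also frequent, in 40 of 120 (33.3%). gata3 reached 32 of 85 il17re-positive barcodes (37.6%, 27.4 to 48.8) in Benthochromis horii, where 133 of 337 lck-positive barcodes had it too (39.5%), beside medians of 4.76% and 3.61% over all libraries. ccr7 was found in 27.3% of il17re-positive barcodes of Trematocara zebra (15 of 55) and 1.22% of those of Julidochromis ornatus (4 of 327). With 1 library a species these are values of single libraries and carry no test.

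**Figure D3:**
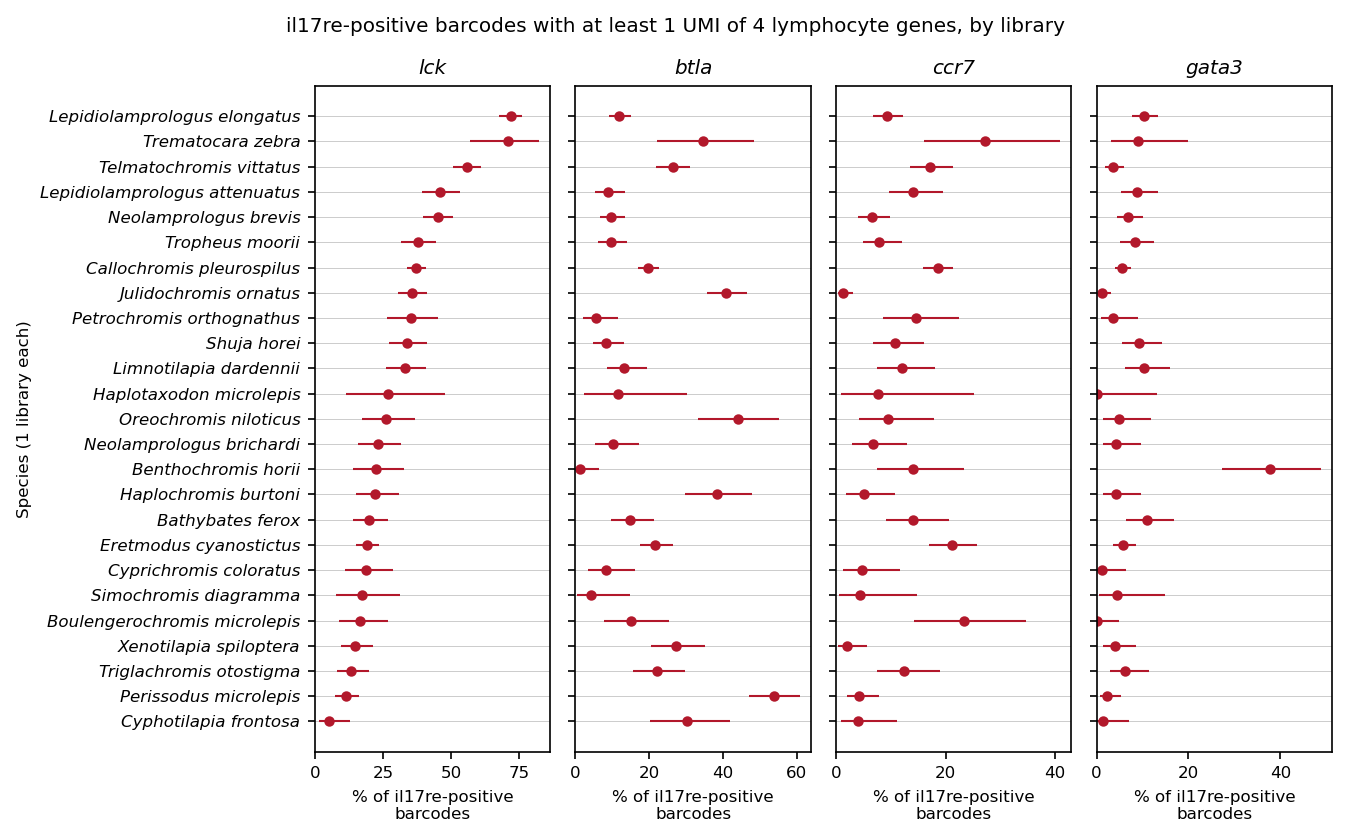
Share of il17re-positive barcodes (x axes, percent, with exact 95% intervals) that held at least 1 UMI of lck, btla, ccr7 or gata3, by species' library (y axis, ordered by lck). Lepidiolamprologus elongatus leads for lck at 72.0%, Perissodus microlepis for btla at 54.0% and Benthochromis horii for gata3 at 37.6%.

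The main comparison asked what else distinguishes il17re-positive cells from lck-positive cells of the same library. Sums per library were compared with edgeR's quasi-likelihood test, with the library as a block and Benjamini-Hochberg adjustment over all genes tested (given as edgeR adjusted p; a gene is called when it is under 0.05). Of 5015 genes tested, 574 (11.4%) were higher and 621 (12.4%) lower in il17re-positive barcodes, together 23.8%. Without Haplotaxodon microlepis 552 were higher and 621 lower, and after thinning to 1000 UMIs 170 were higher and 203 lower of 1783 tested. The rule removes foxp3-positive, csf1r-positive and epithelial barcodes from the il17re-positive side only. A second comparison therefore set the same 5 genes to 0 on both sides, which left 9992 lck-positive barcodes. There 287 of 4589 genes (6.25%) were higher and 265 (5.77%) lower, together 12%. Of the genes higher in the main comparison 258 were called again (44.9% of them, 89.9% of the second list), and of those lower 131 (21.1% and 49.4%). In a further comparison, with equal exclusions, lck was also required on the il17re-positive side, which 1800 barcodes over all 25 libraries met. In the 22 libraries that had at least 10 of them, 132 of 2962 genes (4.46%) were higher and 213 (7.19%) lower, together 11.6%. This comparison, called here the one with lck in both sets, was added after the results were seen. Its il17re-positive barcodes had a median depth of 2899 UMIs, against 2187 UMIs in lck-positive barcodes before the exclusions, as the median over libraries. It was not fitted after thinning, so the part of depth in its calls was not tested.

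prdx6, an antioxidant peroxiredoxin with phospholipase activity, had the highest fold change among named genes. It stood at 4.61, 57.3 and 323 CPM in il17re-positive barcodes (lowest, median and highest library) and at 0, 8.17 and 42.8 CPM in lck-positive barcodes. The ranges overlap between species, but within each of the 25 libraries the il17re-positive sum was the higher one, with a log2 fold change of 3.07 ± 0.17 (SE; edgeR adjusted p = 2.4e-14) and of 2.77 ± 0.17 with equal exclusions. Barcodes with csf1r, and those with mogat2, mttp or cubn, had a median of 1.2 CPM each. The gene varied widely among il17re-positive cells, lowest in Lepidiolamprologus elongatus and highest in Julidochromis ornatus. dennd4a, a regulator of Rab GTPases, had 0, 51.1 and 268 CPM in il17re-positive and 0, 12.3 and 73.8 CPM in lck-positive barcodes, with a log2 fold change of 1.84 ± 0.27 (23 of 25 libraries) and 2.62 ± 0.18 with equal exclusions. Its median in csf1r-positive barcodes was 370 CPM, above both sets, and whether RNA of such cells contributes was not tested. prdx6 and dennd4a were too sparse to be tested with lck in both sets.

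Some of the genes named code for receptors. cysltr1, a receptor of cysteinyl leukotrienes, had 1.98, 85.8 and 595 CPM in il17re-positive and 1.48, 26.7 and 123 CPM in lck-positive barcodes. It was higher in 23 of 25 libraries, by a log2 fold change of 1.71 ± 0.21 (edgeR adjusted p = 1e-07), by 1.47 with equal exclusions and by 0.99 with lck required in both. Haplochromis burtoni had the highest value in il17re-positive barcodes, and Perissodus microlepis and Petrochromis orthognathus were the 2 libraries in which it was lower. il1rap, the accessory chain of the receptors of the IL-1 family, had 10.2, 29.7 and 103 CPM in il17re-positive and 0.491, 9.29 and 24.9 CPM in lck-positive barcodes, higher in 25 of 25 libraries (log2 fold change 1.70 ± 0.16, and 1.47 with equal exclusions). cd200r1, an inhibitory receptor, had 9.68, 101 and 191 CPM in il17re-positive against 21.03, 49.5 and 119 CPM in lck-positive barcodes, a log2 fold change of 0.78 ± 0.14 that was 0.81 with equal exclusions and 0.93 with lck in both sets. The last of these was higher in 21 of 22 libraries.

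The other genes that the rule for named genes selects follow. sntb2, a syntrophin of the dystrophin complex, had 12.3, 90.1 and 201 CPM in il17re-positive and 7.26, 38.0 and 100 CPM in lck-positive barcodes, higher in 25 of 25 libraries (log2 fold change 1.42 ± 0.13, edgeR adjusted p = 3.9e-10), and 0.97 with lck in both sets. dag1, the dystroglycan of the same complex, was higher by 1.22 ± 0.20, and by 0.98 with equal exclusions, but its 0.55 with lck in both sets did not pass the test (edgeR adjusted p = 0.079). ikbke, a kinase of innate and NF-kB signalling, had 8.89, 62.7 and 250 CPM in il17re-positive and 10.1, 24.6 and 102 CPM in lck-positive barcodes, a log2 fold change of 1.28 ± 0.13 in the main comparison and 0.61 with lck in both sets. tnip2, a partner of the NF-kB inhibitor A20, had 109, 387 and 1074 CPM in il17re-positive and 53.4, 168 and 372 CPM in lck-positive barcodes, higher in 25 of 25 libraries by 1.12 ± 0.11, and by 0.66 with lck in both sets. spry1, an inhibitor of growth factor signalling, and slc7a5, a transporter of large neutral amino acids, were each higher in 24 of 25 libraries, by 1.23 ± 0.16 and 1.19 ± 0.15. kctd14 (1.67 ± 0.22, 21 of 25 libraries) and zbtb7c, a zinc finger factor (1.65 ± 0.25, 21 of 25), completed the 12 of that rule. Values of kctd14 and zbtb7c with equal exclusions and with lck in both sets are not reported here.

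The genes with the most negative fold changes in the main comparison included cftr, npc1l1, enpep, lrrc66, cd36, ace, slc12a1, acsl5, lg6h4orf33, cdh17 and meltf, between -2.69 and -2.40. Several belong to the enterocyte brush border, among them enpep (a peptidase), npc1l1 (cholesterol uptake), cd36 (fatty acid uptake) and cftr (chloride channel). cdh17, an intestinal cadherin, had 0, 11.7 and 81.0 CPM in il17re-positive and 5.80, 71.9 and 280 CPM in lck-positive barcodes. With the 5 genes at 0 on both sides, 7 of these were too low to be tested and ace was -0.16 (edgeR adjusted p = 0.65), while cdh17 (-0.76), acsl5 (-0.61) and lg6h4orf33 (-0.49) were called lower again. Over the epithelial list, 6 of 7 tested genes were lower, with a median of -2.23, and 3 of 5 with equal exclusions, with a median of -0.64, beside medians of 0.01 and -0.02 over all genes tested. The summed level of that list was 146 to 2961 CPM in il17re-positive barcodes, against 453 to 18426 CPM in lck-positive barcodes and 219 to 6259 CPM with equal exclusions.

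In all 3 comparisons, 79 genes were higher and 57 lower in il17re-positive barcodes, of 2962 tested in each. Symbols are known for 30 and 24 of them. Beside cysltr1, sntb2, cd200r1, ikbke, tnip2, spry1 and slc7a5, the higher genes include stat4, which transmits IL-12 signals, at 74.2, 185 and 1124 CPM in il17re-positive and 23.1, 107 and 425 CPM in lck-positive barcodes. It was higher in 25 of 25 libraries (log2 fold change 0.84 ± 0.08, edgeR adjusted p = 4.2e-10) and in 21 of 22 with lck in both sets (0.69). tnip1, another A20 partner (0.81, and 0.45 with lck in both sets), nfkb1 (0.49 and 0.25), nfkb2 (0.34 and 0.30) and otulin, which removes linear ubiquitin chains (0.64 and 0.69), also belong to NF-kB signalling. vav1 and pik3r5, of lymphocyte receptor and phosphoinositide signalling, samsn1 and sash3, adaptors of lymphocytes, srgn, the granule proteoglycan serglycin, ets1, a lymphoid transcription factor, arntl, the clock factor, arid5b and odc1, the polyamine synthesis enzyme, were in this set as well. These genes were picked by their calls, so their fold changes are no separate evidence. The symbols of this set other than those of the fixed rule were chosen after their values were seen.

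Of the 24 named genes lower in all 3 comparisons, those given here were picked after their calls were seen and stand for no group. bcl11b, the factor that commits cells to the T lineage, had 28.3, 77.4 and 370 CPM in il17re-positive and 28.2, 105 and 460 CPM in lck-positive barcodes, with log2 fold changes of -0.50, -0.78 and -0.59 in the 3 comparisons. rora, the nuclear receptor of type 3 and type 2 lymphocytes in mammals, had 80.6, 111 and 165 CPM in il17re-positive and 19.7, 144 and 301 CPM in lck-positive barcodes, and was -0.51, -0.74 and -0.45. cd226, an activating receptor, was -0.49, -0.79 and -0.81. In the main comparison cd226 lost its call without any 1 of 14 libraries (without Lepidiolamprologus elongatus -0.42, edgeR adjusted p = 0.0979). jag1, a Notch ligand (-0.97, -1.12 and -0.91), hes4, of a family of Notch targets (-0.44, -0.69 and -1.01), mef2a (-0.57, -0.78 and -0.91), hmga1 (-0.54, -0.80 and -0.69) and the cell cycle inhibitor cdkn1b (-0.41, -0.56 and -0.63) fell too. epcam (-2.16, -0.89 and -1.44) and the fatty acid carrier fabp2 (-2.23, -0.38 and -0.69) were in the same group, so levels of epithelial genes differed between the sets in each of these comparisons, and their part in the other differences was not tested. With epcam at 0 in both sets, an alternative added after the results were seen, bcl11b was -0.75, rora -0.80 and jag1 -1.23, and tnip2 was 0.80, stat4 0.63, sntb2 1.33 and cysltr1 1.44.

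**Figure D4:**
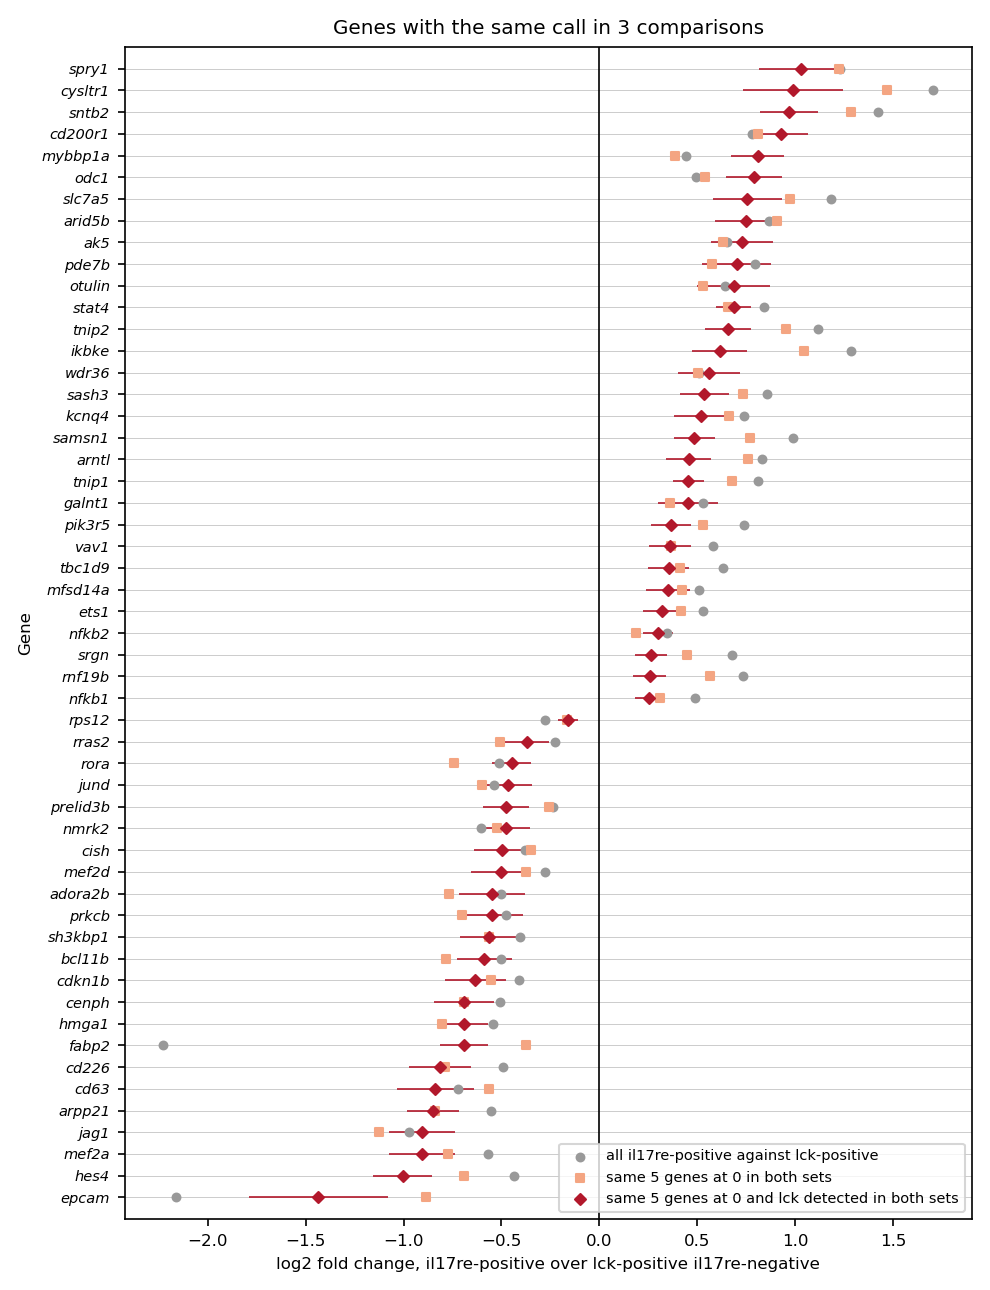
log2 fold change of il17re-positive over lck-positive barcodes (x axis) for 53 named genes called in the same direction in 3 comparisons: all il17re-positive barcodes (grey circles), with the same 5 genes at 0 in both sets (orange squares), and with lck also detected in both (red diamonds, with SE). spry1, cysltr1 and sntb2 lie highest with lck in both sets, and fabp2 stands at -0.38 with equal exclusions and at -2.23 without them.

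The gene lists were described by counts, and none was tested as a set. Their counts stand beside 23.8% of all genes called in the main comparison, 12% with equal exclusions and 11.6% with lck in both sets, and a list whose share lies near these is no result about that list. Of 13 tested genes of T cell receptor signalling, vav1 (0.58), cd2 (0.37), an adhesion molecule of T and NK cells, and ptprc (0.21), the CD45 phosphatase, were higher and 9 did not pass. Without Haplochromis burtoni ptprc was 0.17 and lost its call (edgeR adjusted p = 0.0753), as it did without 3 other libraries. With equal exclusions vav1 stayed higher, while cd3e (-0.38), a chain of the T cell receptor complex, rhoh (-0.33) and itk (-0.30) were lower and ptprc was -0.02. With lck in both sets cd3e was -0.14 (edgeR adjusted p = 0.37). cd3e itself had 51.8, 139 and 407 CPM in il17re-positive and 24.1, 156 and 345 CPM in lck-positive barcodes, and cd247, the zeta chain, 127, 289 and 487 CPM in il17re-positive and 59.9, 262 and 467 CPM in lck-positive barcodes. Neither passed the test in the main comparison (edgeR adjusted p = 0.18 and 0.12), and both ranges overlap almost wholly. The list's median was 0.11, beside 0.01 over all genes.

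Of the IL-17 receptor family, il17rb, the IL-25 receptor chain, had 0, 19.8 and 234 CPM in il17re-positive and 0, 14.9 and 236 CPM in lck-positive barcodes (log2 fold change 0.09 ± 0.27, edgeR adjusted p = 0.90). traf2 (0.38) and ikbkg (0.26), adaptors downstream of the family and of TNF receptors, were called higher in the main comparison, 2 of 7 tested, which is close to the 23.8% of all genes called. Neither was called with equal exclusions. There cebpd, a factor that IL-17 induces in mammals, was the 1 gene of 7 called (higher, 0.83 ± 0.17), which is near the 12% of all genes. With lck in both sets 0 of 4 tested genes of this list were called. Without Limnotilapia dardennii ikbkg lost its main call (0.22, edgeR adjusted p = 0.0555). The symbols il17ra, il17rc, rorc, il23r, il22, cd4, cd8a, zap70 and ccr9 were not matched and are not analysed here, and il17rd, eomes and kit had too few UMIs to be tested.

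Among 5 tested type 3 lymphocyte genes, il7r, the IL-7 receptor chain, had 92.6, 511 and 1254 CPM in il17re-positive and 44.0, 262 and 655 CPM in lck-positive barcodes. It was higher in 24 of 25 libraries by 0.94 ± 0.11 (edgeR adjusted p = 3.5e-08) and by 0.65 with equal exclusions, but by 0.24 with lck in both sets (edgeR adjusted p = 0.26). batf, an AP-1 factor of T helper cells, was higher (0.50), rora and id2 (-0.54), a factor of innate lymphoid cells, were lower, and the list's median was 0.11. With equal exclusions batf (0.25, edgeR adjusted p = 0.084) and id2 (-0.41, edgeR adjusted p = 0.054) did not pass, which left il7r higher and rora lower. With lck in both sets 1 of 5 tested genes of this list, not il7r, was called higher. There 2 were lower, rora among them, beside 11.6% of all genes called. In the type 2 list neither tested gene passed, by edgeR, by DESeq2 or at an unadjusted p under 0.05: gata3 was 0.33 ± 0.24 (edgeR adjusted p = 0.36), with 0, 41.1 and 467 CPM in il17re-positive and 2.50, 28.8 and 310 CPM in lck-positive barcodes, and il10 was 0.36. Of 5 type 1 and cytotoxic genes, stat4 and srgn (0.68 ± 0.08, 25 of 25 libraries) were higher. tbx21, the factor of type 1 cells, was -0.61 ± 0.28 and did not pass (edgeR adjusted p = 0.12), though its -0.86 with equal exclusions did (edgeR adjusted p = 0.041).

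For co-stimulatory and co-inhibitory genes, cd200r1 and vsir (0.26) were higher, cd226 lower, and btla did not pass (0.19 ± 0.19), with 4.09, 79.7 and 561 CPM in il17re-positive and 9.22, 70.6 and 300 CPM in lck-positive barcodes. With lck in both sets btla was lower, at -0.81 ± 0.21 in 20 of 22 libraries (edgeR adjusted p = 0.011). vsir lost its call without any 1 of 8 libraries, for example without Haplochromis burtoni (0.21, edgeR adjusted p = 0.0875). Of 16 lymphoid transcription factors, ets1 (0.53), irf4 (0.54) and bhlhe40 (0.46) were higher and bcl11b and prdm1 (-0.70) lower, with ets1 and bcl11b alone called when exclusions were equal. prdm1 lost its call without any 1 of 5 libraries, for example without Neolamprologus brevis (-0.57, edgeR adjusted p = 0.0644). ccr7, of the homing list, was -0.38 in the main comparison and -0.58 with equal exclusions, and with lck in both sets -0.28, which did not pass; its main call was lost without any 1 of 3 libraries, for example without Callochromis pleurospilus (-0.34, edgeR adjusted p = 0.0666). klf2, of the same list, was called higher with equal exclusions (0.87), but with lck in both sets 0 of 4 tested genes of that list were called. The cytokine receptor list gave tgfbr3 (-0.59) and cish (-0.38), a suppressor of cytokine signalling, as lower, 2 of 6, beside the 23.8% of all genes. With equal exclusions 2 of 6 genes of that list were lower, and with lck in both sets 2 of 5. Of all genes 12% and 11.6% were called in these comparisons.

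Of the NF-kB and immediate early list 9 of 26 tested genes were higher and 5 lower, with a median of 0.10. nfkb1, nfkb2, nfkbie (0.30) and tnfaip3 (0.53), the A20 enzyme, were among the higher ones, while jund (-0.54), dusp1 (-0.46), fosl1 (-0.92) and atf3 (-1.05), which respond to stress and dissociation as well as to stimulation, were among the lower. With equal exclusions 4 were higher and 4 lower: nfkb1, nfkb2, tnfaip3 and dusp5 rose, zfp36l2, relb, fosb and jund fell, and atf3 was 0.23 (edgeR adjusted p = 0.62). With epcam at 0 in both sets atf3 was called higher (0.62, edgeR adjusted p = 0.0153), opposite to its main call. With lck in both sets 3 of 25 were higher and 6 lower, with a median of -0.15: nfkb1, nfkb2 and egr2 (0.80) rose, and relb (-0.39), jund (-0.47), fosl1 (-0.80), dusp1 (-0.65), zfp36l2 (-0.48) and gadd45b (-0.47) fell. Among 9 heat shock genes dnajb1 alone was called in the main comparison, at -0.73. It was -0.03 with equal exclusions, where 0 of 9 passed by edgeR and 0 had an unadjusted p under 0.05. With lck in both sets 2 of 7 heat shock genes were called and 3 had an unadjusted p under 0.05. Of 5 interferon response genes 0 passed by edgeR in the main comparison or with equal exclusions, 1 had an unadjusted p under 0.05 in each of these 2, and 0 passed by DESeq2 in the main one.

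Markers of other cell types differed in either direction. The B and plasma cell list summed to a median of 854 CPM in il17re-positive and 519.9 CPM in lck-positive barcodes, of which xbp1 alone had a median of 774 CPM in il17re-positive and 414 CPM in lck-positive barcodes. Of these markers cd79a was too low to be tested, with a median of 3.91 CPM, and of that list xbp1, also a factor of secretory lymphocytes, was higher (0.78, 25 of 25 libraries, and 0.69 with equal exclusions). With lck in both sets 0 of the 2 tested genes of that list, and so not xbp1, were called higher and 1 was lower, with a median of -0.28. Of 6 macrophage and dendritic markers lgmn (-1.27) and mafb (-1.56) were lower, and with equal exclusions 0 of 4 passed by edgeR and 1 had an unadjusted p under 0.05. The summed level of that list was 76.45, 203 and 697 CPM in il17re-positive, against 136, 344 and 795 CPM in lck-positive barcodes. Granulocyte markers summed to a median of 15.5 CPM in il17re-positive and 12.8 CPM in lck-positive barcodes, with none abundant enough to be tested. The tuft list summed to a median of 296 CPM in il17re-positive and 211 CPM in lck-positive barcodes, with a median log2 fold change of 0.41 over 3 tested genes. All 3 had an unadjusted p under 0.05, and vav1 was the 1 called, beside hck (0.41, edgeR adjusted p = 0.12) and plcg2 (0.34, edgeR adjusted p = 0.13). trpm5 and pou2f3, which define tuft cells, were too low to be tested, with medians of 0 CPM each in il17re-positive barcodes and of 0 and 1.47 CPM in lck-positive barcodes. Of the goblet list agr2 was lower (-1.81), and with equal exclusions it was -1.24 and did not pass (edgeR adjusted p = 0.12). The fibroblast and endothelial list summed to a median of 58.1 CPM in il17re-positive and 42.8 CPM in lck-positive barcodes, and the enteroendocrine list to 48.1 CPM in il17re-positive and 97.5 CPM in lck-positive barcodes. Both lists had 1 tested gene each, and neither passed by edgeR, by DESeq2 or at an unadjusted p under 0.05. Of 10 cell cycle genes, with a median of -0.39, mki67 was lower (-0.77) by edgeR, 3 had an unadjusted p under 0.05, and DESeq2 called 4. With equal exclusions the median was -0.47 over 7 tested genes, 0 passed by edgeR and 3 had an unadjusted p under 0.05. mki67 itself was called in the main comparison, but not with equal exclusions (-0.75, edgeR adjusted p = 0.078), and it was 0.12 with lck in both sets. Its main call was lost without any 1 of 5 libraries, for example without Trematocara zebra (-0.68, edgeR adjusted p = 0.0628).

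**Figure D5:**
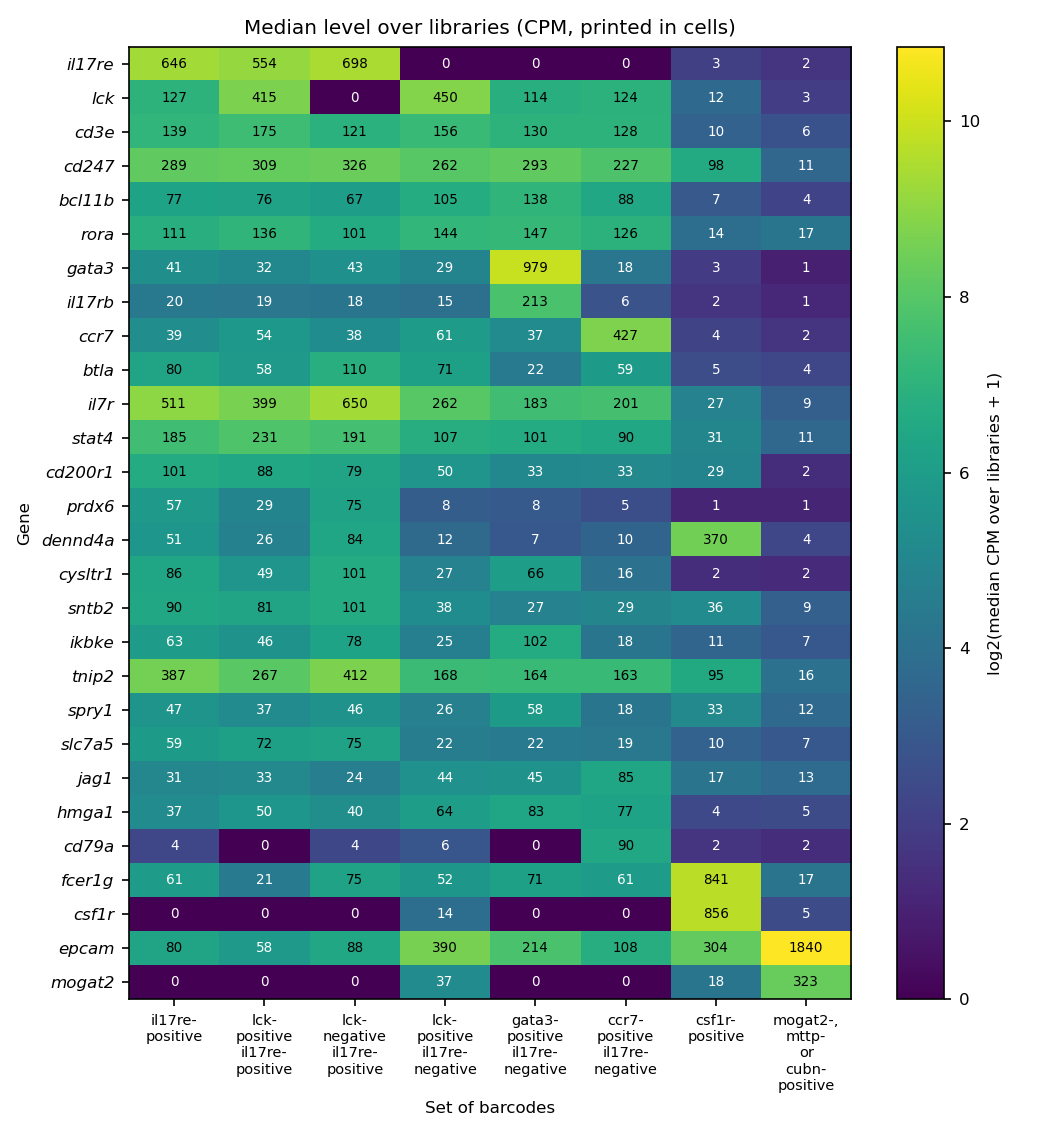
Median CPM over libraries (printed in each cell, colour on a log2 scale) of selected genes (rows) in il17re-positive barcodes, their lck-positive and lck-negative parts, and the sets they were compared with (columns). il7r, stat4, tnip2 and sntb2 are highest in the il17re-positive columns, whereas dennd4a is highest in csf1r-positive barcodes and il17rb in gata3-positive ones.

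The gata3-positive barcodes without il17re and with the same 5 genes at 0 numbered 2098 over all 25 libraries. Against them, in the 22 libraries with at least 10, 200 of 2252 genes tested (8.88%) were higher and 141 (6.26%) lower in il17re-positive barcodes, together 15.1%. il17rb was 0, 21.3 and 234 CPM in il17re-positive and 0, 214 and 1914 CPM in gata3-positive barcodes, lower in 20 of 22 libraries with a log2 fold change of -3.601 ± 0.419 (edgeR adjusted p = 3.5e-07). gpr183, a receptor for oxysterols that positions lymphocytes (-2.69), sytl3 (-2.12), id2 (-2.01), egln3, an oxygen sensor (-1.69), and cebpd (-1.43) were the other genes most reduced. cish was lower as well (-1.09). On the other side, il7r had 92.6, 506 and 1254 CPM in il17re-positive and 51.7, 183 and 486 CPM in gata3-positive barcodes and was higher in 22 of 22 libraries (1.53 ± 0.16, edgeR adjusted p = 3.6e-08). btla (1.49 ± 0.26, 18 of 22), sntb2 (1.47), klhl6 (1.41), tbc1d9 (1.39, 22 of 22) and plxnd1 (1.27), a semaphorin receptor, followed, and cd200r1 (1.01), dusp4 (1.18) and stat4 (0.68) were higher too.

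Neither lck nor cd3e passed the test in that contrast. lck was 29.5, 126 and 641 CPM in il17re-positive and 35.7, 114 and 516 CPM in gata3-positive barcodes (log2 fold change 0.07 ± 0.14, edgeR adjusted p = 0.83), and cd3e was 0.03 ± 0.18 (edgeR adjusted p = 0.96), with ranges that overlap. rora was lower (-0.44), in the same direction as against lck-positive barcodes, which share the il17re-positive sums. The call of rora was lost without any 1 of 15 libraries, for example without Triglachromis otostigma (-0.35, edgeR adjusted p = 0.105). The lck-positive and gata3-positive sets share 562 barcodes, and epcam was lower in il17re-positive barcodes here as well (-1.29). With epcam at 0 in both sets 106 genes were higher there, in place of 200.

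Against ccr7-positive barcodes without il17re and with the 5 genes at 0 (4358 barcodes, 25 libraries), 340 of 3607 genes (9.43%) were higher and 407 (11.3%) lower, together 20.7%. Among the genes with the most negative fold changes, cd79a, the B cell receptor chain, had 0, 3.91 and 68.3 CPM in il17re-positive and 0, 89.6 and 427 CPM in ccr7-positive barcodes (-3.95 ± 0.38, edgeR adjusted p = 2.2e-09). swap70 (-3.81), sh3bp5 (-3.36), plk2 (-3.19), ncf1, of the phagocyte oxidase (-2.48), and pag1 (-2.10) were lower in the same comparison, as was the chemokine receptor cxcr4 (-1.33). Of 4 tested B and plasma cell markers 3 were lower and xbp1 was higher (0.78). prdx6 (3.27), dennd4a (2.80), cysltr1 (2.30), ikbke (1.83) and dag1 (1.63) were the genes most raised, together with il10, an anti-inflammatory cytokine, at 0, 61.4 and 395 CPM in il17re-positive and 0, 17.5 and 79.1 CPM in ccr7-positive barcodes (2.001 ± 0.262, 22 of 25 libraries). gata3 was higher too (0.90 ± 0.21), cd3e was 0.20 ± 0.12 (edgeR adjusted p = 0.25), and lck was -0.06 ± 0.13 (edgeR adjusted p = 0.82). epcam was -0.52 ± 0.24 and did not pass (edgeR adjusted p = 0.13).

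The il17re-positive barcodes were not uniform. Those with lck were compared with those without it in 22 libraries with at least 10 of each: 298 of 2364 genes (12.6%) were higher and 311 (13.2%) lower with lck, together 25.8%. Barcodes with lck were deeper (median 2899 UMIs, against 2332 UMIs without lck), and after thinning to 1000 UMIs 16 genes were higher and 51 lower of 764 tested. klf2, a factor of lymphocyte trafficking and quiescence, had 0, 18.5 and 105 CPM with lck and 4.68, 108 and 459 CPM without it (-2.36 ± 0.25, 20 of 22 libraries, edgeR adjusted p = 1.6e-07). selenop (-1.51), a plasma selenium carrier, socs3 (-1.49), which restrains STAT3 signalling, fcer1g (-1.39), the signalling chain of Fc receptors, dennd4a (-1.30) and the stress factor atf3 (-1.30) were lower too. Of these, selenop and socs3 were deep enough to be tested after thinning and were called lower again (-0.79 and -1.05). hck (-1.06) and plcg2 (-0.64), on the tuft list and also used by myeloid or B cells, btla (-0.83), blk (-0.80), il7r (-0.54) and stat3 (-0.40) were lower with lck. Thinned values of hck, plcg2, btla, blk and stat3 are not reported here, so the part of depth in these calls is not shown.

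Higher with lck were snrpf (1.30) and snrpd2 (1.07), of the splicing machinery, psma8, a proteasome subunit (1.07), denr, a translation factor (0.99), mybbp1a (0.98), a nucleolar protein, and pgam1, a glycolytic enzyme (0.94). sh2d1a, the SAP adaptor of T and NK cells, had 0, 105 and 399 CPM with lck and 18.9, 43.4 and 226 CPM without it (0.92 ± 0.16, 19 of 22 libraries, edgeR adjusted p = 0.00017). Only 16 of 764 tested genes were higher with lck after thinning to 1000 UMIs. For snrpf, snrpd2, psma8, denr, mybbp1a, pgam1 and sh2d1a the thinned values are not reported here. cd3e (0.44) and rora (0.59) were higher with lck, whereas cd247 (-0.13 ± 0.08, edgeR adjusted p = 0.25) and gata3 (-0.23 ± 0.23, edgeR adjusted p = 0.50) did not pass. Of 12 tested T cell receptor genes 5 were higher and 0 lower, with a median of 0.29 beside -0.02 over all genes. After thinning, cd3e was 0.25 (edgeR adjusted p = 0.22) and rora 0.39 (edgeR adjusted p = 0.12), and il7r -0.38 (edgeR adjusted p = 0.013). il17re had 189, 554 and 1071 CPM in the barcodes with lck and 308, 725 and 1190 CPM in those without. These values are a description only, since each barcode holds at least 1 il17re UMI by rule and those with lck were deeper. fcer1g had a median of 841 CPM in csf1r-positive barcodes, selenop 2051 CPM there and 2747 CPM in barcodes with mogat2, mttp or cubn, so genes abundant in those barcodes were among those lower with lck. The summed macrophage list was 47.9, 129 and 652 CPM with lck and 79.8, 296 and 727 CPM without it, and the part of such RNA in the difference was not tested.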

How the data were processed

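Single-cell RNA-seq of the intestine was analysed in 25 libraries, 1 per cichlid species. The deposited files hold UMI counts per gene and barcode, made with Cell Ranger 5.0.0 per the file headers (5.0 per the submitters' processing notes), beside columns of barcodes and gene names. The genome and annotation are not given in the sources used here. Of 42622 features, 30456 carry only a LOC identifier, 0 of which matched the name table, and genes are named by symbol only, so closely similar gene copies are uncertain.

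Barcodes with at least 500 UMIs and 250 genes were kept, and counts were summed per library and set. Libraries with at least 10 barcodes in each set entered edgeR 4.0.16 (R 4.3.3; TMM, filterByExpr, quasi-likelihood test, library as block, Benjamini-Hochberg adjustment over all genes tested, threshold 0.05). The block is the library: both sets come from the same library. The fits were tested on simulated data. DESeq2 1.42.0, another scaling, no filter, no block, thinning, removal of marked doublets, stricter limits and each library left out were alternatives. Doublets were kept in the main analysis and marked by a simulated-doublet score at 0.8% per 1000 barcodes in 1 alternative. For detection, barcodes with at least 1000 UMIs were thinned to 1000 and compared over libraries by sign-flip permutation (100000 resamples, 5 genes adjusted together). Thinned gene sums kept the sets chosen on full counts. Intervals are exact (Clopper-Pearson, 95%), and cover counting error only.

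Genes named are the 12 of largest change per direction (6 in the other comparisons) among called genes with a symbol, a mean of at least 20 CPM in the higher set and the same sign in at least 80% of libraries, up to 4 called genes per list and direction, and a fixed set of lymphocyte genes. Some of these genes are not reported here, while counts over lists include them. The cells and the 21 gene lists were chosen with earlier results of these data known. Other steps used scipy 1.17.1, pandas 2.3.3, matplotlib 3.10.9, scikit-learn 1.9.0 and numpy 2.4.6 under Python 3.11.15.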

Additional observations from a re-analysis of the deposited data

How the results depend on the processing

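Against lck-positive barcodes, the 574 higher genes became 154 with no replicate block, 170 after thinning, 353 with il17re of 2 or more UMIs, 267 with epcam at 0, 287 with the 5 genes at 0, 223 with lck detected and 132 with lck detected and the 5 genes at 0, the last 4 in both sets. The 621 lower genes became 2606 with no filter on low counts, 330 with no replicate block, 203 after thinning, and 366, 265, 369 and 213 under those 4 settings. Against gata3-positive barcodes, 200 higher and 141 lower genes became 1069 and 611 with no filter, 42 and 44 with no replicate block and 69 and 60 after thinning, and 106 were higher with epcam at 0. Against ccr7-positive barcodes, 340 and 407 became 775 and 684 with no filter, 128 and 114 with no replicate block and 219 and 178 after thinning. Between il17re-positive barcodes with and without lck, 298 and 311 became 11 and 22 with no replicate block, 16 and 51 after thinning and 120 and 130 with il17re of 2 or more UMIs, and 1002 were lower with no filter. Thinning left 1783, 732, 1290 and 764 genes to test in these 4 comparisons, in place of 5015, 2252, 3607 and 2364. The cause of the shifts, also of those after thinning, was not tested. Leaving out 1 library gave 474 to 596 higher and 580 to 673 lower genes against lck-positive, 163 to 245 and 112 to 155 against gata3-positive, 327 to 363 and 326 to 419 against ccr7-positive barcodes, and 243 to 313 and 262 to 384 between those with and without lck. The pairing of sets by library comes from the design, and the block is part of the main fit.

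Detection differences that passed only under another setting were ccr7 without thinning (4.52 percentage points, permutation adjusted p = 1.2e-05) and btla without thinning (8.03), at 2000 UMIs (6.62) and without Lepidiolamprologus attenuatus (3.39), each by permutation. Leaving out 1 library gave 1.95 to 3.39 percentage points for btla and 0.481 to 0.886 for ccr7.

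Changes of sign against lck-positive barcodes were seen for ptprc (-0.066 with epcam at 0, -0.022 with the 5 genes at 0, -0.028 with lck and the 5 genes), ikbkg (-0.052, lck and the 5 genes), btla (-0.81, the same), vsir (-0.0062, epcam at 0), mki67 (0.13 with lck detected but without equal exclusions, 0.12 with lck and the 5 genes), fosl1 (0.40, epcam at 0), atf3 (0.62 with epcam at 0, 0.23 with the 5 genes at 0) and dnajb1 (0.10, epcam at 0). Of these, atf3 with epcam at 0 was a call opposite to the main one (edgeR adjusted p = 0.0153). Against gata3-positive barcodes ier2 was 0.000954 with no filter. The cause was not tested. Of the remaining values of single genes, 6220 kept direction and side of the threshold, 466 lost their call and 16 gained one. Sums of few UMIs limit every low gene.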
